A study of Mus musculus with 24 samples.

Results

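The genes described here are 34 direct transcriptional targets of p53 other than Cdkn1a and Mdm2, with the p53 gene Trp53 itself counted among them. They were named from knowledge of the p53 pathway, matched by symbol in the deposited table, and make up 34 of its 33272 gene rows. Each symbol matched 1 row, and all 34 passed the filter on low counts in both organs.

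The samples are C57BL/6 mouse livers and kidneys of 4 arms, with 3 RNA-seq libraries per arm and organ and 24 in all. Control mice had no treatment, and the labels give them no collection time. The other arms were CBLB502 alone at 0.2 mg/kg, cisplatin alone at 20 mg/kg, and the combination, in which CBLB502 was injected 30 min ahead of cisplatin. Injections were intraperitoneal and organs were taken at 72 h. CBLB502 is a flagellin derivative that activates the receptor TLR5, and cisplatin is a platinum drug that crosslinks DNA. Sex and age are not given, no mouse is labelled as carrying a mutant allele, and nothing says that the libraries of an arm came from separate animals, so a p-value reflects library spread, which may be technical. From its title, the study asked whether the TLR5 agonist protects liver and kidney against cisplatin.

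The p53 protein is a transcription factor that is held at a low level by the ubiquitin ligase MDM2 and accumulates when DNA is damaged. It binds a response element made of a pair of decamers and induces genes that stop the cell cycle, start apoptosis, repair DNA, alter metabolism or feed back on p53. In cisplatin nephrotoxicity p53 is known as a driver of tubule cell death, and in liver the same program is reached by many genotoxic agents.

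Levels are CPM, gene counts over the depth of the library, with depths scaled by edgeR's TMM factors. Scaling was done within each organ, so liver and kidney levels are not on a common scale, and differences in level between organs are approximate. Values of 3 libraries are listed in the order of the library number, 1 to 3 in liver and in kidney controls and 4 to 6 in treated kidney. A fold is the ratio of 2 group means of CPM. A log2 fold change is the fitted value ± an SE, which is the size of that value divided by the square root of the test's F statistic. The F statistic and the adjusted p come from edgeR's quasi-likelihood test over all genes of the organ. A gene is called, and is said to have risen or fallen, where the adjusted p was under 0.05. Positions are those of the deposited table, whose gene starts or ends match GENCODE release M21 on GRCm38 for all 34 genes.

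Treated libraries held 53.5 to 77.5 M counts in liver and 54.1 to 77.1 M in kidney. Control libraries were of another kind: mitochondrial genes took 69.3 to 72.2% of counts in liver controls and 60.7 to 69.0% in kidney controls, against 2.57 to 7.11% and 6.32 to 14.2% in treated libraries. Outside these genes and a mitochondrial pseudogene cluster on chromosome 1, controls kept 2.82 to 4.65 M counts in liver and 5.05 to 10.1 M in kidney. A comparison with controls therefore also compares 2 kinds of library, and the comparisons with CBLB502 alone are given first. Cisplatin library 3 of liver and cisplatin library 6 of kidney stood apart from the others of their arm. Summed over 8 hepatocyte markers, liver libraries held 13740 to 85470 CPM and kidney libraries 279 to 726; summed over 8 tubule and podocyte markers, kidney libraries held 1509 to 7364 CPM and liver libraries 3.94 to 20.9. In whole organs, fewer cells of a type and less RNA per cell cannot be told apart.

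The sequence that ties these genes to p53 was looked for in RefSeq promoter windows on GRCm38.p6, which run from 250 bases before to 50 bases after a start site. A match to the p53 response element allowed up to 3 mismatches in 20 bases with the 4 core letters fixed, and since the element is its own reverse complement the search covers both strands. Windows were held for 27 of the 34 genes, and 8 of these 27 genes (29.63%) had a match, against 441 of 27025 genes (1.632%). With at most 1 mismatch, 2 of the 27 genes (7.407%) had a match, against 22 of 32851 windows (0.067%). These last shares are of genes and of windows, and the 27 genes held 39 windows. Because the genes were named as known p53 targets, their higher share of matches is partly set by the choice. A match is a description and not a shown binding site, and 19 genes without a match lack only these letters in these windows. The 8 matched stretches are printed 5′ to 3′ on the strand of the gene, with the 4 core letters in capitals, since they show how near each gene comes to the element.
Ccng1 (chr11:40755462-40755481, 1 mismatch): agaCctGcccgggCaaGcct
Rps27l (chr9:66946296-66946315, 1 mismatch): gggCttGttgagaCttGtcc
Ckap2 (chr8:22186003-22186022, 2 mismatches): agaCatGtcctgaCttGtca
Aen (chr7:78895937-78895956, 3 mismatches): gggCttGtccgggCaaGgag
Bbc3 (chr7:16309486-16309505, 3 mismatches): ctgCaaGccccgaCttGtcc
Sesn1 (chr10:41887266-41887285, 3 mismatches): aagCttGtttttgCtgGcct
Tigar (chr6:127109746-127109765, 3 mismatches): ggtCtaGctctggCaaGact
Trp53 (chr11:69580284-69580303, 3 mismatches): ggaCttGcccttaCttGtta

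The stretches in Ccng1, Ckap2, Tigar and Trp53 lie upstream of all annotated transcripts of their gene in GENCODE release M21, those in Rps27l, Bbc3 and Sesn1 lie in an intron of a transcript that starts earlier, and the one in Aen lies in an exon. Ccng1 and Rps27l came closest to the element, and their surroundings are shown with the element in capitals and 50 bases on either side. In Ccng1 the element starts 195 bases before the start site, and in Rps27l 117 bases before an internal start site.
Ccng1 (chr11:40755412-40755531, minus strand): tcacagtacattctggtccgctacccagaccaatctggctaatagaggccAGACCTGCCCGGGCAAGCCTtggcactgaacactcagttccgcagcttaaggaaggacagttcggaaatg
Rps27l (chr9:66946246-66946365, plus strand): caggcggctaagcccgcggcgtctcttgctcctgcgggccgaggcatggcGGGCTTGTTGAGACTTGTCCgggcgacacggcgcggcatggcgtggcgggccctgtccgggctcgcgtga

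Of the 8 genes with a match, Ccng1, Aen and Bbc3 rose in both organs and in both cisplatin arms relative to CBLB502 alone, whereas Sesn1 and Tigar were called in none of these 4 comparisons. Rps27l, Ckap2 and Trp53 were called in some of them.

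Relative to CBLB502 alone, cisplatin alone raised 19 of the 34 genes in liver and lowered none (background 12.5% of 17931 genes called, 7.7% higher and 4.84% lower). In kidney it raised 26 and lowered 1 (background 28.7% of 20341 genes called, 18.5% higher and 10.2% lower). The combination raised 16 and lowered none in liver (background 6.74% called, 2.88% higher and 3.86% lower), and raised 22 and lowered 1 in kidney (background 23.8% called, 14.9% higher and 8.98% lower). The median log2 fold change over the 34 genes was 1.89 in liver and 1.77 in kidney after cisplatin, and 1.11 and 1.62 after the combination. Over all genes tested these medians were -0.06, -0.05, 0.02 and -0.02. Both cisplatin arms are set here against the same CBLB502 libraries, so their calls are not independent.

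Every gene that rose in liver in either comparison also rose in kidney in the same comparison. A core of 14 genes rose in all 4 comparisons: Aen, Bax, Bbc3, Btg2, Ccng1, Eda2r, Ephx1, Gdf15, Phlda3, Plk2, Plk3, Sesn2, Tnfrsf10b and Trp53inp1. After cisplatin alone, 7 genes were called in kidney and not in liver: Apaf1, Ckap2, Ei24, Fas, Perp, Pmaip1 and Trp53. After the combination the 6 such genes were Abhd4, Fas, Mgmt, Perp, Psrc1 and Rps27l. Ak1, Fdxr, Pidd1, Ptp4a3, Sesn1 and Tigar were called in none of the 4 comparisons. Without liver cisplatin library 3 the cisplatin comparison called 19 genes higher and 3 lower (background 29.6% called, 14.1% higher and 15.5% lower). Without kidney cisplatin library 6 it called 27 higher and 4 lower (background 46.9% called, 23.7% higher and 23.2% lower). The liver combination calls were the most sensitive to single libraries: leaving out any CBLB502 or combination library gave 8 to 10 calls in place of 16, and 8 genes were called each time (Ccng1, Plk2, Bax, Aen, Trp53inp1, Eda2r, Phlda3 and Sesn2). Of the 19 genes that rose in liver after cisplatin, 12 were called whichever library was left out, and Abhd4, Ephx1, Gdf15, Mgmt, Psrc1, Tnfrsf10b and Zmat3 were not. In kidney 25 of 27 cisplatin calls held in this way, without Apaf1 and Trp53, and 18 of 23 combination calls, without Bbc3, Gdf15, Perp, Rrm2b and Tnfrsf10b.

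**Figure D1:**
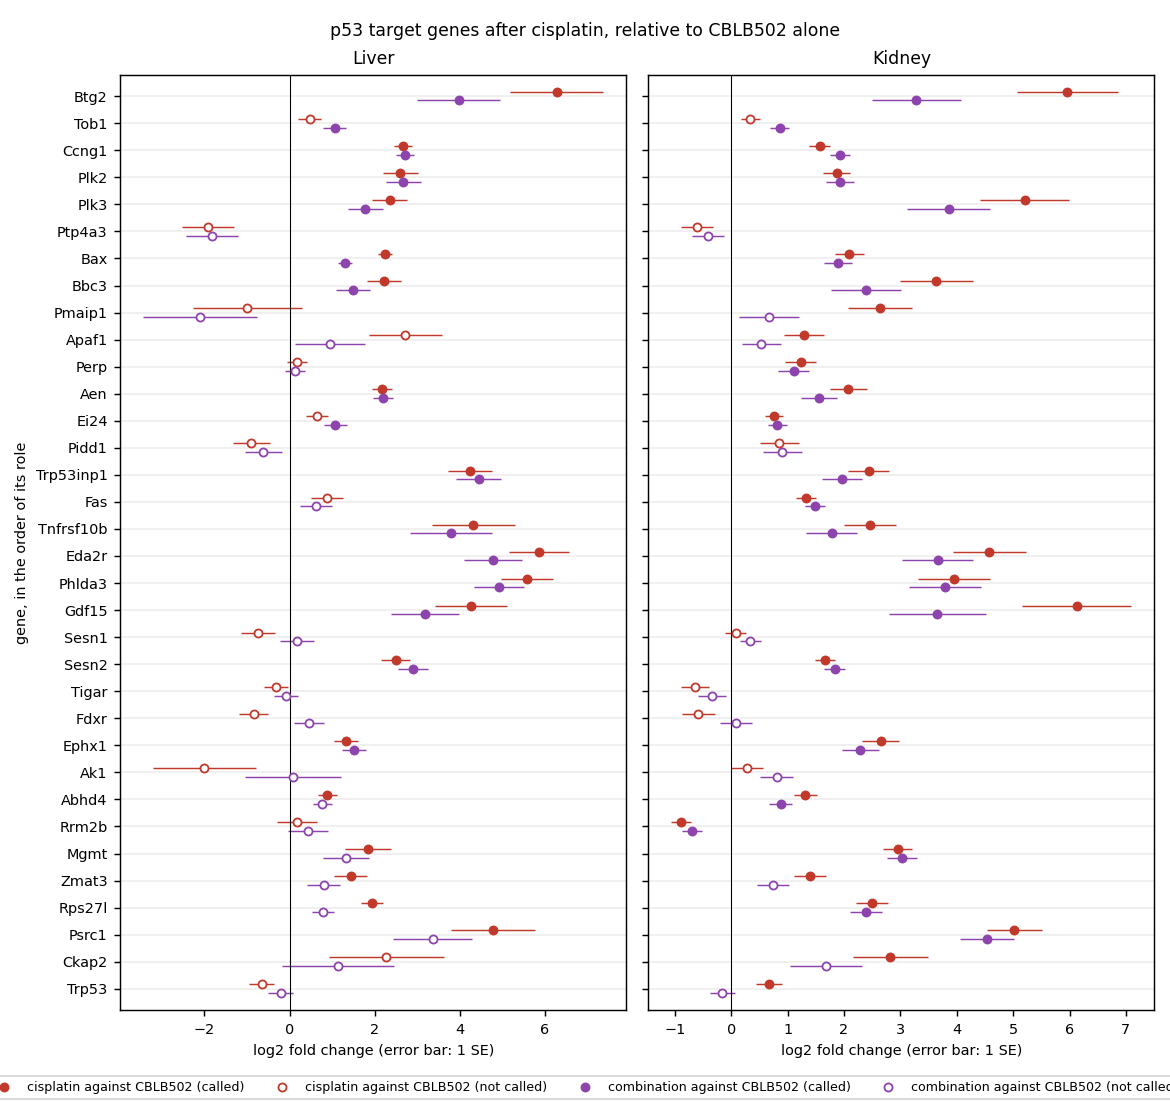
Fitted log2 fold changes (horizontal axis, error bar 1 SE) of the 34 genes against CBLB502 alone, for cisplatin and for the combination, in liver and in kidney; filled points are called at an adjusted p under 0.05. Most filled points lie to the right of 0 in both organs, and Rrm2b in kidney is the filled gene to the left of 0.

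Of the 6 growth arrest genes, 4 rose after cisplatin in each organ and 5 after the combination. They were led by Btg2 (ENSMUSG00000020423, chromosome 1, 134075170 to 134079120), an antiproliferative protein of the BTG/TOB family that recruits the mRNA deadenylase complex. In liver, Btg2 stood at 6.96, 13.7 and 2.72 CPM in controls, 6.31, 4.69 and 4.72 after CBLB502, 789, 407 and 21.7 after cisplatin and 106, 98.4 and 42.5 after the combination. In kidney it stood at 12.3, 12.4 and 14.8 CPM in controls, 11.3, 10.6 and 8.60 after CBLB502, 1066, 793 and 37.0 after cisplatin and 117, 102 and 78.7 after the combination. All libraries of both cisplatin arms lay above all CBLB502 libraries in each organ, while cisplatin library 3 of liver and library 6 of kidney lay far below the others of their arm. Of all genes, 17.4% in liver and 22.2% in kidney lay wholly above CBLB502 after cisplatin, and 25.1% and 29.7% after the combination. Btg2 rose 77.4-fold in liver (log2 fold change 6.27 ± 1.1, adjusted p = 0.00493) and 62.2-fold in kidney (5.96 ± 0.897, adjusted p = 0.000951) after cisplatin. After the combination it rose 15.7-fold in liver (3.97 ± 0.983, adjusted p = 0.0347) and 9.73-fold in kidney.

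Ccng1 (ENSMUSG00000020326, chromosome 11, 40748552 to 40755311) encodes cyclin G1, which brings the phosphatase PP2A to MDM2. Liver Ccng1 was 14.1, 11.7 and 9.76 CPM in controls, 13.2, 13.9 and 14.8 after CBLB502, 91.6, 82.5 and 91.8 after cisplatin and 115, 78.2 and 83.2 after the combination. Kidney Ccng1 was 90.9, 85.9 and 99.8 CPM in controls, 106, 107 and 110.5 after CBLB502, 326, 321 and 313 after cisplatin and 522, 306 and 403 after the combination. The 3 cisplatin libraries were close to each other in both organs, and neither cisplatin arm overlapped CBLB502 or control. Kidney held more of it than liver in every arm. Ccng1 rose 6.33-fold in liver after cisplatin (log2 fold change 2.66 ± 0.212, adjusted p = 0.000156) and 6.58-fold after the combination (2.72 ± 0.213, adjusted p = 0.000176). In kidney it rose 2.97-fold (1.57 ± 0.182, adjusted p = 0.000455) and 3.81-fold (1.93 ± 0.184, adjusted p = 0.000135).

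Plk2 (ENSMUSG00000021701, chromosome 13, 110395046 to 110400844) and Plk3 (ENSMUSG00000028680, chromosome 4, 117128655 to 117133963) are polo-like kinases that respond to cell stress. Plk2 levels in liver were 3.73, 8.28 and 8.45 CPM in controls, 3.06, 2.81 and 4.79 after CBLB502, 33.4, 11.8 and 19.4 after cisplatin and 25.8, 23.9 and 18.0 after the combination. Plk2 levels in kidney were 10.8, 8.69 and 8.94 CPM in controls, 7.56, 6.15 and 5.06 after CBLB502, 29.8, 22.4 and 16.6 after cisplatin and 26.9, 18.9 and 25.7 after the combination. Plk2 rose 6.06-fold and 6.36-fold in liver and 3.66-fold and 3.81-fold in kidney, in the order of cisplatin and combination, with no overlap with CBLB502. Plk3 levels in liver were 28.9, 42.0 and 34.5 CPM in controls, 21.1, 27.9 and 22.0 after CBLB502, 152, 167 and 42.6 after cisplatin and 85.5, 91.4 and 66.4 after the combination. Plk3 levels in kidney were 6.51, 4.26 and 6.91 CPM in controls, 3.55, 2.17 and 3.54 after CBLB502, 168, 163 and 11.6 after cisplatin and 61.2, 41.0 and 31.8 after the combination. Plk3 was lower in kidney than in liver without cisplatin, and again 1 cisplatin library of each organ was far below the others. It rose 5.10-fold and 3.43-fold in liver, and in kidney 36.9-fold (log2 fold change 5.21 ± 0.789, adjusted p = 0.00097) and 14.5-fold (3.85 ± 0.741, adjusted p = 0.00343). Exons of Plk3 overlap Tctex1d4 on the opposite strand, and without a stated strand setting its counts are uncertain.

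Tob1 (ENSMUSG00000037573, chromosome 11, 94211454 to 94215495), of the same family as Btg2, moved less. It measured 14.5, 19.7 and 27.7 CPM in controls, 50.02, 48.1 and 51.7 after CBLB502, 66.6, 53.8 and 87.5 after cisplatin and 122, 109.6 and 80.9 after the combination in liver. It measured 26.9, 28.9 and 28.5 CPM in controls, 50.1, 45.7 and 43.5 after CBLB502, 55.8, 64.7 and 55.4 after cisplatin and 108, 70.9 and 74.5 after the combination in kidney. The combination was above CBLB502 in each library of both organs, and Tob1 rose 2.09-fold in liver and 1.82-fold in kidney. Cisplatin alone was at 1.39 and 1.26 times CBLB502 and was not called. Ptp4a3 (ENSMUSG00000059895, chromosome 15, 73723145 to 73758766), the tyrosine phosphatase PRL-3, ranged over 6.35 to 10.4 CPM in liver controls, 4.12 to 5.83 after CBLB502 and 0.326 to 2.60 in both cisplatin arms. In kidney it ranged over 8.53 to 18.4, 7.67 to 9.45 and 4.33 to 7.45 CPM. Both cisplatin arms lay below CBLB502 in both organs, without overlap, and none of these differences was called. Of all genes, 21.6% in liver and 23.2% in kidney lay wholly below CBLB502 after cisplatin, and 22.2% and 29.1% after the combination.

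Of the 9 genes of intrinsic apoptosis, 4 rose in liver and 8 in kidney after cisplatin, and 5 and 6 after the combination. Bax (ENSMUSG00000003873, chromosome 7, 45461697 to 45466898) encodes the protein that forms pores in the outer mitochondrial membrane. Bax in liver was at 19.3, 20.5 and 20.3 CPM in controls, 9.59, 9.94 and 9.13 after CBLB502, 53.6, 43.3 and 38.3 after cisplatin and 21.9, 23.9 and 24.8 after the combination. Bax in kidney was at 26.1, 29.1 and 22.0 CPM in controls, 19.9, 16.5 and 24.1 after CBLB502, 91.7, 112 and 54.9 after cisplatin and 78.2, 80.8 and 64.8 after the combination. In liver the order was cisplatin, combination, control and CBLB502, with no overlap between neighbours. In kidney both cisplatin arms lay above the other arms and overlapped each other. Against CBLB502, Bax rose 4.72-fold (log2 fold change 2.24 ± 0.168, adjusted p = 0.000156) and 2.46-fold (1.30 ± 0.163, adjusted p = 0.000969) in liver. The kidney values were 4.28-fold (2.10 ± 0.25, adjusted p = 0.000455) and 3.69-fold (1.89 ± 0.248, adjusted p = 0.000431). A same-strand gene, Gm45808, overlaps exons of Bax, which makes its counts uncertain.

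Bbc3 (ENSMUSG00000002083, chromosome 7, 16308393 to 16318205) and Pmaip1 (ENSMUSG00000024521, chromosome 18, 66458533 to 66465565) encode the BH3-only proteins PUMA and NOXA, which free or activate BAX. Bbc3 reached 3.43, 1.62 and 2.31 CPM in controls, 2.58, 1.82 and 1.82 after CBLB502, 16.3, 6.87 and 5.90 after cisplatin and 6.39, 5.24 and 5.88 after the combination in liver. Bbc3 reached 2.62, 0.410 and 2.55 CPM in controls, 1.07, 0.601 and 1.40 after CBLB502, 18.4, 15.1 and 4.76 after cisplatin and 5.54, 4.96 and 5.56 after the combination in kidney. It rose in both organs, 4.68-fold and 2.82-fold in liver and 12.5-fold and 5.23-fold in kidney. For Pmaip1 the liver values were 0, 0 and 2.42 CPM in controls, 0.629, 0.970 and 0.777 after CBLB502, 0.382, 0.447 and 0.367 after cisplatin and 0.321, 0.192 and 0.0359 after the combination. For Pmaip1 the kidney values were 5.75, 8.45 and 6.60 CPM in controls, 6.41, 6.35 and 7.83 after CBLB502, 69.0, 51.7 and 7.71 after cisplatin and 13.9, 9.79 and 9.06 after the combination. Liver held little Pmaip1 in any arm and no liver comparison with CBLB502 called it, with cisplatin and combination both below CBLB502 without overlap. In kidney it rose 6.24-fold after cisplatin, although library 6 lay inside the CBLB502 range, and the combination, at 1.59 times CBLB502, was not called.

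Apaf1 (ENSMUSG00000019979, chromosome 10, 90989311 to 91082770) is the scaffold of the apoptosome, which activates caspase-9. Its liver levels were 0.505, 0 and 1.31 CPM in controls, 1.93, 0.860 and 0.846 after CBLB502, 15.03, 6.75 and 2.17 after cisplatin and 3.19, 2.46 and 1.38 after the combination. Its kidney levels were 3.04, 2.71 and 2.91 CPM in controls, 2.95, 2.95 and 3.42 after CBLB502, 9.35, 10.1 and 3.35 after cisplatin and 5.18, 3.88 and 4.43 after the combination. It rose 2.45-fold in kidney after cisplatin, with library 6 inside the CBLB502 range, a call that was lost without CBLB502 library 4 or 5 or cisplatin library 4 or 5, and no other comparison with CBLB502 called it. In liver cisplatin was at 6.59 times CBLB502 with an adjusted p of 0.0585. Aen (ENSMUSG00000030609, chromosome 7, 78895854 to 78911209), a nuclease that enhances apoptosis, gave 4.44, 8.13 and 8.55 CPM in controls, 8.85, 9.503 and 8.77 after CBLB502, 42.5, 43.8 and 35.6 after cisplatin and 43.6, 37.0 and 43.6 after the combination in liver. Aen gave 13.4, 15.5 and 16.2 CPM in controls, 19.3, 15.6 and 18.0 after CBLB502, 90.5, 98.8 and 33.7 after cisplatin and 63.3, 42.8 and 49.8 after the combination in kidney. It rose 4.49-fold and 4.58-fold in liver, and 4.22-fold and 2.95-fold in kidney, with no overlap.

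Trp53inp1 (ENSMUSG00000028211, chromosome 4, 11156431 to 11174379), a stress protein that takes part in p53 activity and autophagy, was among the largest changes in liver. Trp53inp1 in liver measured 10.9, 11.5 and 30.9 CPM in controls, 21.6, 14.5 and 16.1 after CBLB502, 452, 387 and 146 after cisplatin and 367, 457 and 307 after the combination. Trp53inp1 in kidney measured 15.3, 11.8 and 16.2 CPM in controls, 15.8, 17.0 and 18.5 after CBLB502, 133, 106 and 38.2 after cisplatin and 79.5, 55.9 and 65.7 after the combination. In each organ the control and CBLB502 ranges overlapped, and every liver library exceeded every kidney library in each of the cisplatin arms. It rose 18.9-fold in liver after cisplatin and 21.7-fold after the combination (log2 fold change 4.44 ± 0.526, adjusted p = 0.00075), and 5.41-fold and 3.92-fold in kidney.

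Perp (ENSMUSG00000019851, chromosome 10, 18845020 to 18857073) is a membrane protein of desmosomes linked to p53-dependent death. Liver Perp came to 10.1, 9.21 and 6.34 CPM in controls, 42.8, 43.6 and 37.4 after CBLB502, 34.9, 42.6 and 61.9 after cisplatin and 47.3, 43.1 and 45.7 after the combination. Kidney Perp came to 17.0, 21.7 and 21.5 CPM in controls, 33.4, 35.8 and 43.6 after CBLB502, 100.4, 117 and 48.2 after cisplatin and 94.1, 70.1 and 78.7 after the combination. In liver the 3 treated arms lay together, well above controls. In kidney it rose 2.35-fold and 2.15-fold over CBLB502. Ei24 (ENSMUSG00000062762, chromosome 9, 36779159 to 36797393), an endoplasmic reticulum protein of autophagy, had 53.1, 42.0 and 64.0 CPM in controls, 87.6, 81.8 and 82.2 after CBLB502, 91.5, 110.1 and 191 after cisplatin and 182, 173 and 176 after the combination in liver. Ei24 had 66.9, 61.5 and 61.9 CPM in controls, 82.7, 78.5 and 87.1 after CBLB502, 165, 143 and 112 after cisplatin and 166, 125 and 147 after the combination in kidney. It rose in kidney after cisplatin (1.69-fold) and the combination (1.77-fold), and in liver after the combination alone (2.11-fold); Gm26787 overlaps it on the opposite strand. Pidd1 (ENSMUSG00000025507, chromosome 7, 141438113 to 141444025), the scaffold that activates caspase-2, ranged over 0.925 to 1.54 CPM in the cisplatin arms of liver against 1.94 to 2.69 after CBLB502, and over 3.63 to 7.79 against 2.55 to 3.46 in kidney, and was not called.

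All 3 receptors of the TNF family rose in kidney in both arms, and 2 of them rose in liver. Eda2r (ENSMUSG00000034457, chromosome X, 97333840 to 97377216), the receptor for ectodysplasin A2, had 0, 0 and 0 CPM in controls, 0.181, 0.119 and 0.0680 after CBLB502, 10.7, 8.42 and 2.58 after cisplatin and 4.52, 1.86 and 3.82 after the combination in liver. Eda2r had 0.761, 0.492 and 0.208 CPM in controls, 0.168, 0.506 and 0.482 after CBLB502, 13.5, 11.1 and 3.06 after cisplatin and 6.43, 3.46 and 4.75 after the combination in kidney. No count fell on Eda2r in the liver controls. A floor of 3 counts over that group is 0.0916 CPM, so cisplatin was at least 78.9-fold higher than control and the combination at least 37.1-fold higher. Against CBLB502, Eda2r rose 58.9-fold (log2 fold change 5.86 ± 0.707, adjusted p = 0.00149) and 27.7-fold (4.77 ± 0.676, adjusted p = 0.00373) in liver, and 23.9-fold and 12.7-fold (3.66 ± 0.629, adjusted p = 0.00182) in kidney.

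Tnfrsf10b (ENSMUSG00000022074, chromosome 14, 69767472 to 69784411) is the mouse receptor for the death ligand TRAIL. It registered 0.404, 0.387 and 0 CPM in controls, 0.0763, 0.0366 and 0.379 after CBLB502, 5.55, 2.84 and 1.502 after cisplatin and 3.42, 2.13 and 1.28 after the combination in liver. It registered 2.37, 1.31 and 2.29 CPM in controls, 1.55, 1.35 and 1.02 after CBLB502, 9.76, 8.85 and 3.08 after cisplatin and 6.42, 3.27 and 3.79 after the combination in kidney. It rose 20.1-fold and 13.9-fold in liver and 5.54-fold and 3.44-fold in kidney. Fas (ENSMUSG00000024778, chromosome 19, 34290666 to 34327772), the receptor for Fas ligand, showed 3.94, 5.26 and 1.81 CPM in controls, 7.14, 5.49 and 5.20 after CBLB502, 8.58, 7.16 and 16.9 after cisplatin and 10.4, 8.29 and 8.78 after the combination in liver. Fas showed 7.36, 6.19 and 6.29 CPM in controls, 4.29, 4.39 and 4.10 after CBLB502, 12.1, 11.2 and 8.97 after cisplatin and 11.9, 12.4 and 11.5 after the combination in kidney. Fas rose in kidney, 2.52-fold and 2.80-fold over CBLB502, and in liver, at 1.83 and 1.54 times CBLB502 without overlap, it was not called.

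Phlda3 (ENSMUSG00000041801, chromosome 1, 135766119 to 135769136) encodes a pleckstrin homology protein that competes with AKT for membrane lipids and so restrains it. Phlda3 in liver ran at 4.95, 0.929 and 0.906 CPM in controls, 0.505, 0.329 and 0.797 after CBLB502, 34.8, 20.2 and 23.2 after cisplatin and 18.2, 17.1 and 14.1 after the combination. Phlda3 in kidney ran at 28.8, 3.90 and 7.58 CPM in controls, 4.26, 4.28 and 4.12 after CBLB502, 56.5, 105 and 35.2 after cisplatin and 71.4, 49.3 and 54.8 after the combination. It rose 47.9-fold (log2 fold change 5.58 ± 0.611, adjusted p = 0.000611) and 30.2-fold (4.92 ± 0.593, adjusted p = 0.000834) in liver. In kidney it rose 15.5-fold (3.96 ± 0.639, adjusted p = 0.00128) and 13.9-fold (3.79 ± 0.634, adjusted p = 0.00159). The 3 kidney CBLB502 libraries were nearly equal, while control library 1 was the highest control in both organs.

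Gdf15 (ENSMUSG00000038508, chromosome 8, 70629393 to 70632456) encodes a secreted stress hormone that acts through the hindbrain receptor GFRAL to suppress appetite. Gdf15 in liver read 2.83, 23.3 and 2.31 CPM in controls, 1.22, 1.06 and 1.84 after CBLB502, 49.0, 13.5 and 16.8 after cisplatin and 15.2, 9.44 and 12.8 after the combination. Gdf15 in kidney read 0.930, 6.19 and 1.66 CPM in controls, 4.47, 3.17 and 3.55 after CBLB502, 408, 353 and 20.8 after cisplatin and 51.4, 46.1 and 43.7 after the combination. In kidney, cisplatin libraries 4 and 5 exceeded every other library of either organ, library 6 lay below the combination, and both arms lay above CBLB502. It rose 69.8-fold in kidney after cisplatin (log2 fold change 6.12 ± 0.971, adjusted p = 0.0012) and 12.6-fold after the combination (3.66 ± 0.866, adjusted p = 0.0103). In liver it rose 19.2-fold (4.27 ± 0.84, adjusted p = 0.00874) and 9.09-fold (3.18 ± 0.802, adjusted p = 0.0373).

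**Figure D2:**
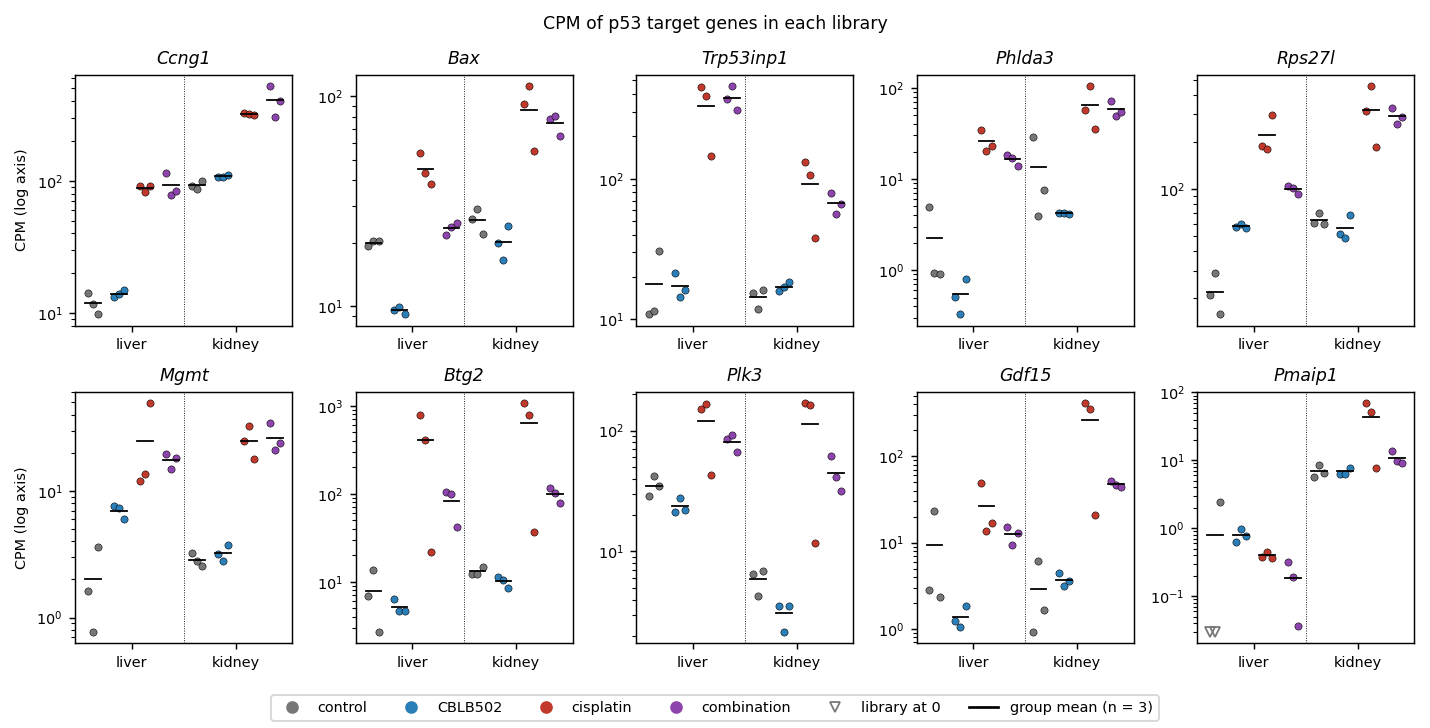
CPM (log axis) of 10 of the genes in each of the 24 libraries by organ and arm, with the mean of each arm of 3 libraries as a bar; open triangles mark libraries at 0, drawn at 0.03 CPM. Ccng1 varies little among cisplatin libraries, while Btg2, Plk3, Gdf15 and Pmaip1 in kidney each show 2 high cisplatin libraries and 1 low.

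Of the 7 metabolic and redox genes, 3 rose in liver and 3 in kidney after cisplatin, and 2 and 3 after the combination. Sesn2 (ENSMUSG00000028893, chromosome 4, 132492032 to 132510501), a leucine-sensitive brake on mTORC1, held 5.45, 4.03 and 10.6 CPM in controls, 2.64, 2.01 and 2.46 after CBLB502, 18.6, 9.82 and 11.5 after cisplatin and 17.4, 17.3 and 18.4 after the combination in liver. Sesn2 held 23.4, 25.2 and 31.5 CPM in controls, 19.2, 17.4 and 23.1 after CBLB502, 69.8, 54.2 and 65.6 after cisplatin and 83.2, 62.0 and 67.5 after the combination in kidney. It rose 5.62-fold and 7.46-fold in liver and 3.18-fold and 3.57-fold in kidney, with the cisplatin libraries of kidney near each other. Its relative Sesn1 (ENSMUSG00000038332, chromosome 10, 41809935 to 41908424) was not called, at 1.99 to 6.58 CPM in the cisplatin arms of liver against 3.75 to 5.77 after CBLB502, and 7.85 to 11.04 against 7.63 to 9.19 in kidney.

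Ephx1 (ENSMUSG00000038776, chromosome 1, 180976210 to 181020904), microsomal epoxide hydrolase of detoxification, yielded 23.4, 43.1 and 35.4 CPM in controls, 129, 153 and 137 after CBLB502, 237, 356 and 455 after cisplatin and 381, 365 and 449 after the combination in liver. Ephx1 yielded 31.6, 18.98 and 20.2 CPM in controls, 33.1, 27.8 and 18.1 after CBLB502, 206, 188 and 101 after cisplatin and 154, 95.1 and 136 after the combination in kidney. It rose 2.5-fold and 2.85-fold in liver and 6.27-fold and 4.88-fold in kidney; a same-strand gene, Gm36961, overlaps its exons. Abhd4 (ENSMUSG00000040997, chromosome 14, 54254188 to 54270637), a lipase of N-acyl phospholipids, totalled 15.8, 11.9 and 14.9 CPM in controls, 16.9, 16.5 and 16.5 after CBLB502, 38.4, 32.1 and 21.4 after cisplatin and 33.9, 24.5 and 26.7 after the combination in liver. Abhd4 totalled 44.3, 34.8 and 44.9 CPM in controls, 29.9, 30.0 and 33.0 after CBLB502, 104, 72.6 and 55.3 after cisplatin and 58.8, 52.6 and 59.0 after the combination in kidney. Abhd4 rose 1.84-fold in liver after cisplatin, and 2.49-fold and 1.83-fold in kidney.

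The other 3 genes of this group were not called against CBLB502. Tigar (ENSMUSG00000038028, chromosome 6, 127085116 to 127109557), which lowers glycolytic flux, ranged over 3.66 to 6.93 CPM in the cisplatin arms of liver against 6.26 to 7.04 after CBLB502, and over 3.46 to 5.61 CPM against 5.09 to 6.82 in kidney. Platr31 overlaps it on the opposite strand. Fdxr (ENSMUSG00000018861, chromosome 11, 115268024 to 115277050), mitochondrial ferredoxin reductase, was at 15.6, 14.7 and 17.4 CPM after CBLB502 in liver, 5.49, 7.17 and 13.8 after cisplatin and 25.1, 17.8 and 22.6 after the combination. In kidney it was at 9.29, 8.18 and 10.2 CPM after CBLB502, 3.66, 5.38 and 9.38 after cisplatin and 10.96, 8.66 and 9.63 after the combination. Fdxr was lower in cisplatin libraries 1 and 2 of liver, and 4 and 5 of kidney, than in any CBLB502 or combination library of the organ. Ak1 (ENSMUSG00000026817, chromosome 2, 32621758 to 32635058), an adenylate kinase, was near 0 in treated liver (0 to 0.311 CPM) and ranged over 11.03 to 11.5 CPM in kidney after CBLB502 and 7.50 to 22.8 in the cisplatin arms.

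Rrm2b (ENSMUSG00000022292, chromosome 15, 37923952 to 37961103), the p53-inducible subunit of ribonucleotide reductase, was the gene that fell against CBLB502. Rrm2b in liver lay at 2.52, 0.542 and 1.51 CPM in controls, 1.41, 1.55 and 1.55 after CBLB502, 2.23, 1.35 and 1.55 after cisplatin and 1.69, 1.98 and 2.45 after the combination. Rrm2b in kidney lay at 12.8, 12.5 and 10.8 CPM in controls, 21.9, 21.4 and 18.5 after CBLB502, 12.6, 8.46 and 12.5 after cisplatin and 12.04, 12.8 and 13.6 after the combination. In kidney the CBLB502 libraries were above all libraries of the other arms, and Rrm2b fell in cisplatin (log2 fold change -0.88 ± 0.177, adjusted p = 0.00394) and in the combination (-0.69 ± 0.176, adjusted p = 0.0153). Gm49085 overlaps it on the opposite strand. Mgmt (ENSMUSG00000054612, chromosome 7, 136894614 to 137130266), which removes alkyl groups from guanine, counted 1.61, 0.774 and 3.62 CPM in controls, 7.65, 7.29 and 5.97 after CBLB502, 12.1, 13.6 and 49.1 after cisplatin and 19.7, 14.8 and 18.1 after the combination in liver. Mgmt counted 3.21, 2.79 and 2.55 CPM in controls, 3.16, 2.82 and 3.71 after CBLB502, 24.8, 32.3 and 17.9 after cisplatin and 34.3, 21.1 and 23.7 after the combination in kidney. Mgmt rose 7.73-fold and 8.15-fold in kidney with all libraries apart from CBLB502, and 3.58-fold in liver after cisplatin, where library 3 was the highest. In liver the combination was at 2.51 times CBLB502 without overlap and was not called.

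Zmat3 (ENSMUSG00000027663, chromosome 3, 32334792 to 32366014) is an RNA-binding zinc finger protein that acts on splicing and mRNA stability. Zmat3 in liver amounted to 4.95, 3.10 and 2.62 CPM in controls, 3.31, 3.58 and 4.20 after CBLB502, 14.3, 11.7 and 3.999 after cisplatin and 6.86, 6.49 and 5.96 after the combination. Zmat3 in kidney amounted to 11.2, 10.1 and 10.5 CPM in controls, 14.1, 12.3 and 15.3 after CBLB502, 44.5, 46.3 and 18.7 after cisplatin and 28.0, 19.04 and 22.6 after the combination. It rose 2.71-fold in liver and 2.63-fold in kidney after cisplatin, although liver library 3 lay inside the CBLB502 range, and was not called after the combination, at 1.74 and 1.67 times CBLB502. Rps27l (ENSMUSG00000036781, chromosome 9, 66946086 to 66949516) encodes a variant of ribosomal protein S27 and carries an element with 1 mismatch, shown above. Rps27l in liver amounted to 21.1, 29.0 and 15.8 CPM in controls, 56.9, 59.6 and 56.2 after CBLB502, 187, 181 and 296 after cisplatin and 104, 101 and 93.2 after the combination. Rps27l in kidney amounted to 60.3, 70.5 and 59.9 CPM in controls, 51.6, 48.9 and 68.0 after CBLB502, 314, 455 and 186 after cisplatin and 331, 261 and 287 after the combination. It rose 3.84-fold in liver after cisplatin, and 5.67-fold and 5.22-fold in kidney. In liver the combination, at 1.73 times CBLB502 without overlap, was not called.

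Psrc1 (ENSMUSG00000068744, chromosome 3, 108383839 to 108388231) and Ckap2 (ENSMUSG00000037725, chromosome 8, 22168160 to 22185819) encode spindle-associated proteins. Psrc1 in liver was read at 0, 0.232 and 0.604 CPM in controls, 0.0858, 0.274 and 0.0875 after CBLB502, 7.51, 4.22 and 0.707 after cisplatin and 1.47, 1.96 and 1.22 after the combination. Psrc1 in kidney was read at 1.01, 1.07 and 0.883 CPM in controls, 0.396, 0.284 and 0.482 after CBLB502, 15.7, 17.4 and 4.69 after cisplatin and 11.1, 6.80 and 9.16 after the combination. It rose 32.5-fold (log2 fold change 5.02 ± 0.487, adjusted p = 0.00036) and 23.3-fold (4.53 ± 0.477, adjusted p = 0.000168) in kidney, and 27.8-fold in liver after cisplatin (4.78 ± 0.99, adjusted p = 0.0109). Its liver combination, at 10.4 times CBLB502, was not called. Ckap2 in liver was read at 0.606, 0 and 0 CPM in controls, 0, 0.384 and 0.321 after CBLB502, 1.43, 1.29 and 0.707 after cisplatin and 0.871, 0.284 and 0.404 after the combination. Ckap2 in kidney was read at 1.01, 0.697 and 1.14 CPM in controls, 0.415, 0.358 and 0.439 after CBLB502, 4.63, 3.49 and 0.477 after cisplatin and 1.33, 0.936 and 1.61 after the combination. It rose 7.10-fold in kidney after cisplatin, where libraries 4 and 5 were high and library 6 lay just above the CBLB502 range. It was not called in kidney after the combination, at 3.20 times CBLB502, nor in liver, at 4.85 and 2.21 times.

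Trp53 (ENSMUSG00000059552, chromosome 11, 69580359 to 69591873) encodes p53, which is controlled mainly through protein stability. Trp53 in liver was found at 12.7, 18.5 and 12.4 CPM in controls, 10.2, 10.1 and 12.1 after CBLB502, 9.67, 3.84 and 6.99 after cisplatin and 8.40, 10.4 and 9.10 after the combination. Trp53 in kidney was found at 21.7, 23.7 and 25.1 CPM in controls, 14.1, 16.1 and 15.1 after CBLB502, 33.2, 23.1 and 15.7 after cisplatin and 13.4, 12.2 and 14.99 after the combination. Relative to CBLB502 its log2 fold change was -0.66 ± 0.293, adjusted p = 0.167 in liver after cisplatin and -0.21 ± 0.292, adjusted p = 0.809 after the combination. In kidney it rose 1.59-fold after cisplatin (0.67 ± 0.226, adjusted p = 0.0449), with library 6 inside the CBLB502 range, but the call was lost on leaving out any of the CBLB502 libraries or cisplatin library 4 or 5. Trp53 stood at -0.16 ± 0.226, adjusted p = 0.657 after the combination. In each of these 4 comparisons the log2 fold change of Trp53 was smaller in size than that of every gene of the core of 14. That core was chosen by its calls in the same 4 comparisons, so the ranking is partly set by the choice.

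**Figure D3:**
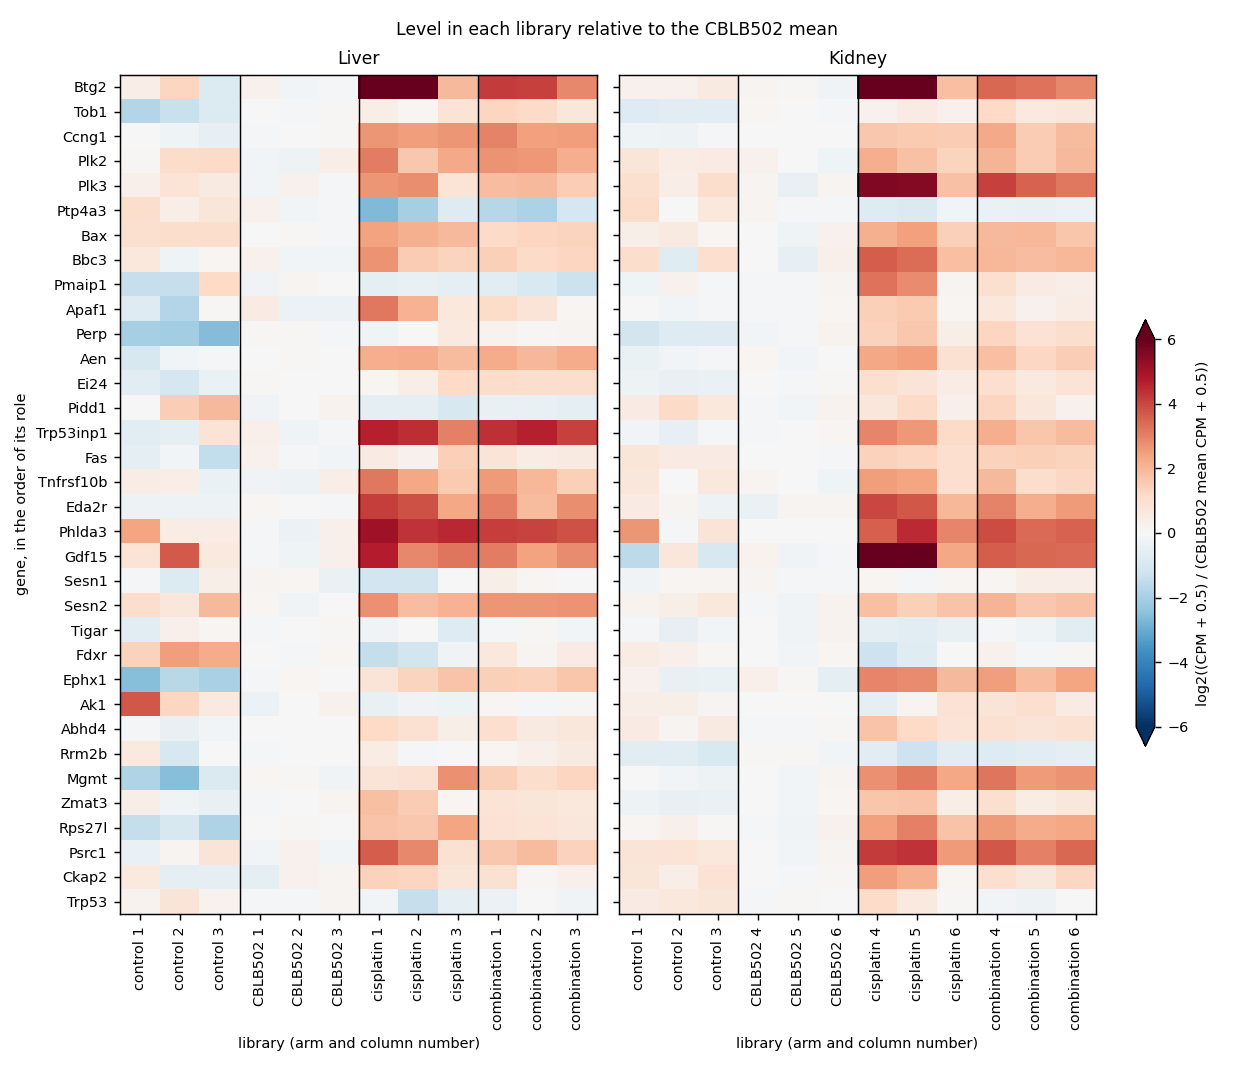
Level of each of the 34 genes in each library, as log2 of (CPM + 0.5) over (mean CBLB502 CPM + 0.5) of the same organ, with the colour scale ending at 6 in either direction. The cisplatin and combination columns are red for most genes, and cisplatin 3 of liver and cisplatin 6 of kidney are paler than the other cisplatin columns for Btg2, Plk3 and Eda2r.

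Compared with per-length levels (CPM per kilobase of exon), which allow genes to be set side by side, the highest after CBLB502 alone were Ephx1 at 71.7 and Rps27l at 70.6 in liver, and Rps27l at 68.8 and Ccng1 at 30.7 in kidney. After cisplatin they were Rps27l at 271 and Ephx1 at 179 in liver, and Rps27l at 390.0, Btg2 at 230.4 and Gdf15 at 141 in kidney. The receptors Eda2r and Tnfrsf10b stayed low on this scale, at 1.23 and 0.604 in liver and 1.56 and 1.33 in kidney after cisplatin.

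Cisplatin against untreated controls raised 23 of the 34 genes in liver and lowered 5 (background 43.1% called, 25.6% higher and 17.5% lower). In kidney it raised 25 and lowered 2 (background 39.3% called, 24.1% higher and 15.2% lower). The median log2 fold change of the 34 genes was 1.70 in liver and 1.77 in kidney, against 0.09 and 0.06 over all genes. With RLE in place of TMM scaling, the liver median over all genes moved from 0.09 to -0.14 and the higher share of liver calls from 59.38 to 49.58%, and 22 of the 34 genes were called higher and 5 lower. All 23 genes that rose in liver also rose in kidney, where Gdf15 and Pmaip1 were added. Of the core of 14 genes, which was chosen in part with the same cisplatin libraries, 13 rose over controls in both organs. The exception was Gdf15 in liver (log2 fold change 1.46 ± 0.759, adjusted p = 0.141), where the controls ran over 2.31 to 23.3 CPM with library 2 far above the others.

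Beside the bound for Eda2r, the largest rises over control in liver were Btg2 (5.70 ± 1.07, adjusted p = 0.00134), Trp53inp1 (4.21 ± 0.523, adjusted p = 8.78e-05) and Psrc1 (3.90 ± 1.04, adjusted p = 0.0102). In kidney they were Gdf15 (6.41 ± 1.0, adjusted p = 0.000522), Btg2 (5.58 ± 0.885, adjusted p = 0.000574), Eda2r (4.29 ± 0.683, adjusted p = 0.000588) and Plk3 (4.28 ± 0.766, adjusted p = 0.0012). Ccng1 rose in liver (2.90 ± 0.217, adjusted p = 4.33e-06) and kidney (1.80 ± 0.184, adjusted p = 3.92e-05), as did Bax (1.17 ± 0.164, adjusted p = 0.000193 and 1.74 ± 0.249, adjusted p = 0.000303) and Phlda3 (3.55 ± 0.58, adjusted p = 0.000531 and 2.31 ± 0.602, adjusted p = 0.0101). The genes that fell in liver were Ak1 (-6.24 ± 1.39, adjusted p = 0.00381), Fdxr (-2.99 ± 0.374, adjusted p = 9.3e-05), Ptp4a3 (-2.72 ± 0.635, adjusted p = 0.00491), Pidd1 (-2.41 ± 0.467, adjusted p = 0.00161) and Trp53 (-1.09 ± 0.299, adjusted p = 0.012). Ptp4a3 (-1.28 ± 0.29, adjusted p = 0.00479) and Fdxr (-0.89 ± 0.293, adjusted p = 0.0312) fell in kidney too, where Trp53 was at 0.03 ± 0.227, adjusted p = 0.933. Ak1 in liver controls rested on library 1, at 8.58, 1.08 and 0.503 CPM in the 3 controls. Which part of these differences goes with the mitochondrial share of the control libraries cannot be told apart from treatment.

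CBLB502 alone, without any genotoxic drug, gave fewer calls and no common direction. In liver 5 genes rose and 7 fell against control (background 27.8% called, 18.3% higher and 9.48% lower). Those that rose were Perp (2.27 ± 0.248, adjusted p = 0.000107), Ephx1 (2.04 ± 0.288, adjusted p = 0.000452), Mgmt (1.82 ± 0.594, adjusted p = 0.0393), Rps27l (1.39 ± 0.259, adjusted p = 0.00239) and Tob1. Those that fell were Ak1 (-4.24 ± 1.25, adjusted p = 0.0253), Gdf15 (-2.80 ± 0.802, adjusted p = 0.0222), Fdxr (-2.14 ± 0.362, adjusted p = 0.00131), Phlda3 (-2.03 ± 0.582, adjusted p = 0.0224), Bax (-1.07 ± 0.164, adjusted p = 0.000727), Sesn2 and Pidd1. Ccng1 (0.24 ± 0.203, adjusted p = 0.404) and Trp53 (-0.43 ± 0.296, adjusted p = 0.299) were not called. Leaving out CBLB502 library 1 or 2 gave 7 calls in place of 12, and RLE scaling moved the higher share of all liver calls from 65.89 to 50.06%, with 4 of the 34 genes higher and 8 lower. In kidney 3 rose and 1 fell (background 19.2% called, 11.4% higher and 7.77% lower): Perp (0.90 ± 0.276, adjusted p = 0.0397), Rrm2b (0.77 ± 0.179, adjusted p = 0.0113) and Tob1 (0.73 ± 0.169, adjusted p = 0.0116) rose and Fas fell (-0.63 ± 0.178, adjusted p = 0.0289). There, Ccng1 (0.23 ± 0.178, adjusted p = 0.42), Bax (-0.35 ± 0.243, adjusted p = 0.349), Phlda3 (-1.64 ± 0.595, adjusted p = 0.0762), Gdf15 (0.29 ± 0.832, adjusted p = 0.851) and Trp53 (-0.64 ± 0.228, adjusted p = 0.0713) were not called. The kidney count was 2 in place of 4 without any of the CBLB502 libraries or without control library 1 or 3, and 9 with DESeq2.

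Whether CBLB502 given ahead of cisplatin changed the p53 program is the comparison of the combination with cisplatin alone. In liver, 2 of the 34 genes fell and none rose (background 3.57% called, 2.58% lower). Bax fell (log2 fold change -0.94 ± 0.161, adjusted p = 0.0143), from 45.1 ± 7.79 to 23.5 ± 1.51 CPM (SD, n = 3), and Rps27l fell (-1.15 ± 0.256, adjusted p = 0.0357), from 221 ± 64.8 to 99.4 ± 5.64 CPM. Neither gene's groups overlapped. The combination lay below cisplatin without overlap for 4 of the 34 genes, which is near the share of 12.9% over all genes. Values for the genes always given were 0.06 ± 0.2, adjusted p = 0.926 for Ccng1, -0.67 ± 0.497, adjusted p = 0.495 for Phlda3, -1.08 ± 0.738, adjusted p = 0.447 for Gdf15 and 0.45 ± 0.293, adjusted p = 0.426 for Trp53, none of them called. The median over the 34 genes was -0.07, against 0.01 over all genes. DESeq2 called 4 of the genes in this comparison, and its share over all genes is not given here. With edgeR, leaving out any of the 3 combination libraries left none called, and leaving out cisplatin library 1 or 2 left 1. Leaving out cisplatin library 3 gave 11, while the share of all genes called was then 23.1%.

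In kidney no gene of the 34 was called between the combination and cisplatin (background 0.00492%, which is 1 gene of 20341). At an unadjusted p under 0.05 edgeR found 7 of the 34, against 2614 of all 20341 genes. DESeq2 called 3 after adjustment, a count whose share over all genes is not given here. The edgeR values were 0.36 ± 0.178, adjusted p = 0.423 for Ccng1, -0.21 ± 0.24, adjusted p = 0.787 for Bax, -0.16 ± 0.565, adjusted p = 0.948 for Phlda3, -2.47 ± 0.818, adjusted p = 0.265 for Gdf15 and -0.83 ± 0.227, adjusted p = 0.235 for Trp53. Of these 5, Trp53 was the gene whose groups did not overlap (the combination lay below cisplatin without overlap for 5.75% of all genes), at 33.2, 23.1 and 15.7 CPM after cisplatin and 13.4, 12.2 and 14.99 after the combination. The spread among the cisplatin libraries was large. Library 6 was the lowest of its arm for 27 of the 34 genes (36.9% of all genes tested) and the highest for 4 (43.7%). In liver, cisplatin library 3 was the lowest for 16 of the 34 (40.4% of all genes) and the highest for 11 (41.9%). The liver counts are not far from these shares.

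The comparison of the combination with cisplatin turned on these libraries. Without kidney cisplatin library 6, 14 of the 34 genes were lower in the combination than in cisplatin and 2 were higher (background 22.3% called, 10.3% lower). The lower genes included Btg2 (-3.23 ± 0.2, adjusted p = 3.13e-06), Gdf15 (-3.01 ± 0.43, adjusted p = 0.000512), Pmaip1 (-2.47 ± 0.221, adjusted p = 2.5e-05) and Plk3 (-1.88 ± 0.277, adjusted p = 0.000618), and Trp53 (-1.06 ± 0.166, adjusted p = 0.000944) was among them. The higher genes were Fdxr (1.11 ± 0.215, adjusted p = 0.00343) and Ak1 (0.97 ± 0.216, adjusted p = 0.00749). Ccng1, Bax, Phlda3, Sesn2 and Mgmt were not called. Without liver cisplatin library 3, 7 genes were lower and 4 higher (background 23.1% called, 12.5% higher and 10.6% lower). The lower ones were Btg2 (-2.85 ± 0.534, adjusted p = 0.00301), Apaf1, Eda2r, Bax (-1.03 ± 0.146, adjusted p = 0.000577), Zmat3, Plk3 and Rps27l (-0.87 ± 0.211, adjusted p = 0.0122), and the higher ones Fdxr (1.80 ± 0.306, adjusted p = 0.00166), Sesn1, Ei24 and Tob1. Both fits rest on 2 cisplatin libraries, and leaving out a library was chosen after the values were seen.

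Other measures moved with the libraries that stood apart. Summed over 12 immediate-early genes such as Fos and Egr1, kidney cisplatin libraries 4, 5 and 6 held 1797, 1484 and 225 CPM, against 316 to 392.2 in the combination. Over the ATF4 and integrated stress response genes they held 1164, 1004 and 321 CPM, against 469.8 to 589.7. Over 8 tubule and podocyte markers they held 1647, 1509 and 5218 CPM, against 3016 to 3737. In liver, cisplatin libraries 1, 2 and 3 held 969, 579 and 174 CPM of immediate-early genes and 613, 518 and 222 of the ATF4 list. They held 31.3, 29.0 and 109 CPM of 8 macrophage markers and 27.8, 38.6 and 2.47 of 8 neutrophil markers. The part of these measures in the values of Btg2, Plk3, Gdf15 and Pmaip1 was not tested.

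The interaction asks whether the effect of cisplatin was the same with and without CBLB502, as the change from CBLB502 to the combination minus the change from control to cisplatin. In liver 3 genes were positive and 3 negative (background 21.7% called, 7.14% positive and 14.5% negative). RLE scaling moved the positive share of all liver calls from 32.97 to 43.69% and called 4 of the 34 genes positive and 3 negative. The positive ones were Ak1 (6.32 ± 1.72, adjusted p = 0.0223), Fdxr (3.45 ± 0.504, adjusted p = 0.001) and Sesn2 (1.895 ± 0.471, adjusted p = 0.0145). The negative ones were Rps27l (-2.54 ± 0.365, adjusted p = 0.000908), Perp (-2.31 ± 0.336, adjusted p = 0.000988) and Ephx1 (-1.85 ± 0.395, adjusted p = 0.00684). All 6 had also been called between CBLB502 and control, in the opposite direction, and the same control and CBLB502 libraries enter both. Values for Ccng1 (-0.18 ± 0.285, adjusted p = 0.689), Bax (0.13 ± 0.228, adjusted p = 0.725), Phlda3 (1.37 ± 0.756, adjusted p = 0.23), Gdf15 (1.72 ± 1.06, adjusted p = 0.279) and Trp53 (0.88 ± 0.417, adjusted p = 0.16) were not called. In kidney edgeR called none of the 34 (background 8.01%), and DESeq2 called 1. An unadjusted p under 0.05 in edgeR was found for 9 of the 34, near the share over all genes (5124 of 20341). Kidney values were 0.13 ± 0.252, adjusted p = 0.802 for Ccng1, 0.14 ± 0.341, adjusted p = 0.853 for Bax, 1.48 ± 0.815, adjusted p = 0.285 for Phlda3, -2.75 ± 1.15, adjusted p = 0.163 for Gdf15 and -0.19 ± 0.32, adjusted p = 0.775 for Trp53. Without kidney cisplatin library 6, 4 genes were positive and 8 negative (background 25.2% called), and without liver cisplatin library 3, 4 were positive and 7 negative (background 30.4% called).

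The organs were compared in 1 fit over the 24 libraries, by the difference of the kidney and liver log2 fold changes. The labels do not say whether livers and kidneys came from the same mice. The fit treated all 24 libraries as independent, so its p-values leave out any such pairing. For the combination against CBLB502, which leaves the control libraries out, 2 of the 34 genes differed (background 6.96% called, 4.08% higher in kidney and 2.87% higher in liver). This count is near the share over all genes. Rps27l changed more in kidney (1.53 ± 0.38, adjusted p = 0.0182) and Trp53inp1 more in liver (-2.53 ± 0.607, adjusted p = 0.015). None of the other genes always given was called: Ccng1 was at -0.85 ± 0.269, adjusted p = 0.0612, Bax at 0.52 ± 0.285, adjusted p = 0.319, Phlda3 at -1.19 ± 0.813, adjusted p = 0.453, Gdf15 at 0.41 ± 1.17, adjusted p = 0.941 and Trp53 at -0.01 ± 0.383, adjusted p = 1.0. For most genes called in kidney and not in liver, a difference between the organs was therefore not shown. Without kidney CBLB502 library 4 or 5 the count was 1, and with DESeq2 it was 6.

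**Figure D4:**
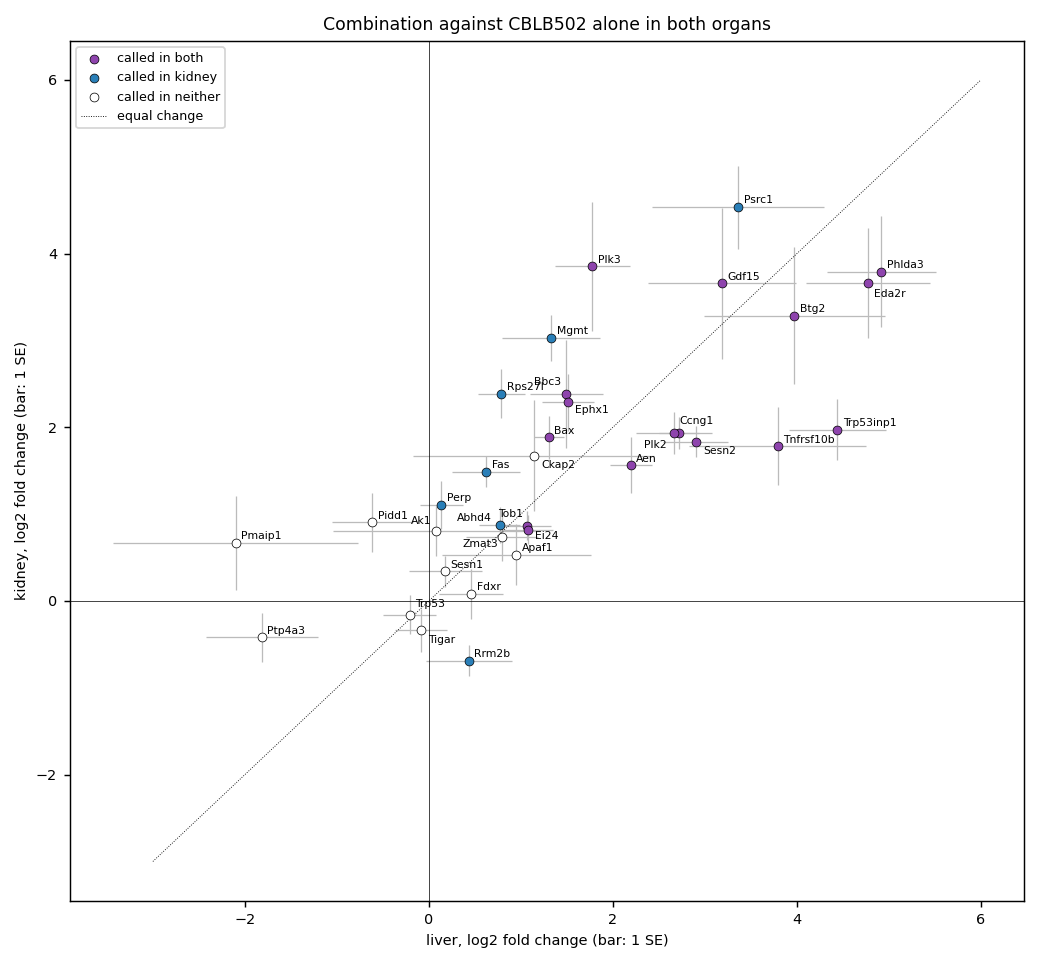
Log2 fold change of the combination against CBLB502 alone in liver (horizontal axis) and kidney (vertical axis) for the 34 genes, with bars of 1 SE and a dotted line of equal change. Genes called in both organs lie to the upper right of the origin, Trp53inp1 below the line and Rps27l and Mgmt above it.

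For cisplatin against control, 8 genes differed between the organs (background 14.2% called, 7.75% higher in kidney and 6.44% higher in liver). The change was more positive in kidney for Ak1 (6.24 ± 1.15, adjusted p = 0.00146), Gdf15 (5.01 ± 1.25, adjusted p = 0.011), Plk3 (2.54 ± 0.842, adjusted p = 0.0488), Pidd1 (2.43 ± 0.59, adjusted p = 0.00962), Fdxr and Trp53 (1.17 ± 0.388, adjusted p = 0.0494). It was less positive in kidney for Ccng1 (-1.06 ± 0.272, adjusted p = 0.0131) and for Eda2r (adjusted p = 0.0427), whose liver controls held no count. Bax (0.62 ± 0.287, adjusted p = 0.162) and Phlda3 (-1.20 ± 0.845, adjusted p = 0.39) were not called. The count was 5 without kidney control library 1 or 2 or liver cisplatin library 2, and 13 without both libraries that stood apart.

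Other genes of the pathway are given by lists, whose counts are to be read against the shares of all genes called. Relative to CBLB502 these were 7.7% higher and 4.84% lower in liver and 18.5% and 10.2% in kidney after cisplatin, and 2.88% and 3.86% in liver and 14.9% and 8.98% in kidney after the combination. Of 14 tested p53 regulators in liver, 4 rose after cisplatin relative to CBLB502 (Cdkn1a, Mdm2, Ppm1d and Atr) and none fell; after the combination 3 rose (Cdkn1a, Mdm2 and Atr). Of 15 tested in kidney, 3 rose after cisplatin (Cdkn1a, Ppm1d and Kat5) and 5 fell (Hipk2, Trp53bp1, Ep300, Mdm4 and Prkdc), and after the combination 3 rose (the same genes) and 4 fell (Hipk2, Mdm4, Trp53bp1 and Ep300). The count of 3 of 15 kidney regulators that rose is near the share over all genes in both arms. Cdkn1a, the cyclin-dependent kinase inhibitor p21, had mean levels of 4.77, 2.40, 282 and 233 CPM in liver and 13.1, 3.89, 434 and 196 in kidney, and Mdm2 15.4, 12.8, 26.7 and 52.4 in liver and 25.9, 27.7, 45.2 and 32.1 in kidney, in the order of control, CBLB502, cisplatin and combination.

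Among apoptosis genes outside the 34, 6 of 19 rose in liver after cisplatin relative to CBLB502 and Casp8 fell, while the combination changed none of the 19 by this test. In kidney 12 of 20 rose after cisplatin and 7 after the combination. Bcl2 and Bcl2l2, which block apoptosis, fell in both arms, while Bcl2l1 and Mcl1, which also block it, rose in both. The count of 2 of 20 that fell is near the share of all genes called lower in both arms. Of 15 ATF4 and integrated stress response rows tested in liver, 5 rose (Ddit4, Atf3, Chac1, Asns and Ppp1r15a) and Sesn3 fell after cisplatin, and Ddit4 rose after the combination. Of 16 in kidney, 10 rose after cisplatin; after the combination 4 rose (Atf3, Ddit4, Psat1 and Ppp1r15a) and Sesn3 fell. Of 12 immediate-early genes, 3 rose in liver (Ier3, Junb and Klf6) and 11 in kidney after cisplatin, and 1 in liver (Dusp1) and 7 in kidney after the combination. Of mitotic genes that p53 represses through the DREAM complex, 2 of 12 fell in liver (Cdc20 and Mki67) and 2 of 15 in kidney (Mki67 and Top2a) after cisplatin. After the combination Mki67 fell in liver and Mki67 and Cenpf in kidney. None of these mitotic genes rose, and the count of 2 of 15 in kidney is near the share of all genes called lower in both arms. After cisplatin relative to CBLB502 the median log2 fold changes in liver and kidney were -0.13 and -0.29 for the regulators, 0.18 and 0.90 for the apoptosis list, 0.79 and 1.52 for the ATF4 list, 2.26 and 3.90 for the immediate-early genes and -2.10 and -0.68 for the mitotic genes, against -0.06 and -0.05 over all genes.

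Markers of other cell types moved in the same comparisons, and every called erythroid, lymphocyte and stromal marker in both organs and macrophage marker in liver was lower. All 5 erythroid markers fell in both organs and both cisplatin arms, from sums of 173 to 189.6 CPM after CBLB502 in liver to 4.23 to 9.42 after cisplatin and 11.5 to 17.2 after the combination. In kidney the sums were 164 to 718, 1.03 to 4.54 and 2.09 to 6.73 CPM. Of 8 lymphocyte markers, 6 fell in liver in each arm, from 8.30 to 12.9 CPM to 0.775 to 2.22 and 0.476 to 1.01, with Cd8a and Ms4a1 at 0 in both cisplatin arms. In kidney 2 of 7 fell after cisplatin (Cd4 and Ptprc) and 3 after the combination (Cd3g, Cd4 and Ptprc), from 8.88 to 12.6 CPM to 0.444 to 3.67 and 1.63 to 1.83, with Cd3e and Cd4 at 0 in both. Of 8 macrophage markers, 5 fell in liver after cisplatin (Adgre1, Vsig4, Csf1r, C1qa and Marco) and all 8 after the combination, from 167 to 317 CPM to 29.0 to 109 and 18.3 to 27.0. In kidney Adgre1 fell and Cd68 rose among 5 tested after cisplatin and none was called after the combination, at 38.7 to 70.8, 20.2 to 39.2 and 22.4 to 29.0 CPM.

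Of 6 tested neutrophil markers, S100a8 and S100a9 rose in liver after cisplatin and Mmp9 and Csf3r fell after the combination, at 2.29 to 3.15, 2.47 to 38.6 and 0.211 to 0.678 CPM. In kidney S100a8 and Retnlg rose after cisplatin and none was called after the combination, at 1.496 to 1.89, 1.36 to 28.3 and 0.241 to 2.35 CPM. Of 8 stromal and endothelial markers, 3 fell in liver after cisplatin (Col3a1, Col1a2 and Pdgfrb) and 5 after the combination (Kdr, Cdh5, Col3a1, Pecam1 and Pdgfrb), from 39.3 to 74.6 CPM to 10.1 to 12.3 and 10.2 to 16.8. In kidney 6 fell after cisplatin and 4 after the combination (Col3a1, Kdr, Col1a2 and Cdh5), from 154 to 242 CPM to 16.6 to 92.4 and 40.4 to 60.9. Of the hepatocyte markers Tat and F2 rose in liver after cisplatin and none was called after the combination. Of the kidney markers reported here, Slc12a3 and Lrp2 fell in kidney in both arms, and Aqp2 rose after the combination. In liver none of 7 tubule and podocyte markers was called, and in kidney Serpina1a rose in both arms and Hnf4a fell after cisplatin among 8 hepatocyte markers. The part of these cell markers in the p53 target values was not tested.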

How the data were processed

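Total RNA was extracted with Trizol and sequenced on standard Illumina libraries, per the labels' protocols. The RNA selection step, aligner, counting tool, strand setting and genome build are not given in the sources used here, and cutadapt 1.9 and FastQC are named in the submitters' processing notes. The authors deposited 1 table of whole-number read counts per gene, with positions and symbols, per the file headers. Its 24 per-sample FPKM columns were not used. Of its gene IDs, 99.65% are in GENCODE release M21. Treated kidney columns are numbered 4 to 6, where the labels number replicates otherwise, so these columns are tied to an arm only.

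Counts were tested with edgeR 4.0.16 (filterByExpr, TMM scaling, quasi-likelihood test) in R 4.3.3, with the 12 libraries of an organ in 1 fit and all 24 for differences between organs. P-values were adjusted by the Benjamini-Hochberg method over all genes tested, with a threshold of 0.05. Scripts were tested on simulated data. Alternatives were DESeq2 1.42.0, RLE scaling, no filter on low counts, leaving out mitochondrial genes, fitting only the 2 groups compared, a replicate block in liver, and leaving out each library; fits without the control libraries and without both cisplatin libraries that stood apart were added after seeing the data. Figures used matplotlib 3.10.9 in Python 3.11.15.

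The 34 genes and the lists (p53 regulators, other apoptosis genes, ATF4 targets, immediate-early genes, mitotic genes, and markers of hepatocytes, tubule and podocyte, erythroid, lymphocyte, macrophage, neutrophil and stromal cells) were chosen with earlier results of these data known. All 34 genes are named. Full statistics are given for up to 4 called genes per direction and comparison with the largest change, and always for Ccng1, Bax, Phlda3, Gdf15 and Trp53; the value of every library is given for genes called in a cisplatin arm against CBLB502. The smallest chi-square per degree of freedom between 2 libraries of an arm was 32.457, so no library was treated as a copy of another. The result of 1 kidney marker gene is not reported here.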

Additional observations from a re-analysis of the deposited data

Results flagged for a closer look

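A difference between the organs was found for 8 genes in the change from control to cisplatin, by the test of the kidney minus liver difference (edgeR, adjusted over all genes). The adjusted p was 0.0131 for Ccng1, 0.0488 for Plk3, 0.00962 for Pidd1, 0.0427 for Eda2r, 0.011 for Gdf15, 0.00567 for Fdxr, 0.00146 for Ak1 and 0.0494 for Trp53. Ccng1, Pidd1, Fdxr and Ak1 were called however a single library was left out. The control libraries, with their high mitochondrial share, enter all 8. For the combination against CBLB502 alone, which does not use the control libraries, the organs differed for Trp53inp1, with an adjusted p of 0.015, and for Rps27l, with an adjusted p of 0.0182. This count is near the share of 6.96% called over all genes. Trp53inp1 was called however a single library was left out.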

How the results depend on the processing

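Relative to CBLB502 alone, the counts of the 34 genes called stayed within 1.5 times the reported count under every alternative run, except that leaving out a library gave 8 to 10 for the liver combination in place of 16. Other leave-one-out ranges were 13 to 22 for liver cisplatin (19), 18 to 23 for the kidney combination (23) and 25 to 31 for kidney cisplatin (27). Against control they were 25 to 29 (liver cisplatin, 28), 7 to 12 (liver CBLB502, 12), 26 to 28 (kidney cisplatin, 27) and 2 to 5 (kidney CBLB502, 4), the last with 9 under DESeq2 and 9 with only the 2 groups compared. The combination against cisplatin gave 2 in liver, with 1 without the filter on low counts, 4 under DESeq2, 0 with only the 2 groups compared and 0 to 11 on leaving out a library; in kidney it gave 0, with 3 under DESeq2 and 0 to 16. The interaction gave 6 in liver (5 to 11) and 0 in kidney (0 to 12, and 1 under DESeq2). The organs differed for 8 genes after cisplatin (5 without the filter, 13 without both cisplatin libraries that stood apart, 5 to 11 on leaving out a library) and for 2 after the combination (6 under DESeq2, 1 to 3). The share of all genes called moved between fits too. For the combination against cisplatin it was 23.1% without liver cisplatin library 3 and 22.3% without kidney cisplatin library 6. Shares over all genes are not given here for the DESeq2 counts. The cause of these changes was not tested.

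Same-numbered liver libraries were compared by the correlation of their deviations from the group means. Over 18 pairs it ran from -0.169 to 0.176, against -0.191 to 0.187 over 36 other pairs, and 12 of 36 best matches were of the same number. With 3 libraries per arm, the check cannot decide whether a number stands for a shared animal or batch. With the replicate block in liver, the calls were 28 and 10 against control for cisplatin and CBLB502, 18 and 13 against CBLB502 for cisplatin and the combination, 1 for the combination against cisplatin and 6 for the interaction. The numbers of treated kidney columns are not those of the labels, and no block was fitted there. Low counts limit Eda2r, Tnfrsf10b, Psrc1, Ckap2 and Pmaip1 in liver controls, which hold the fewest counts.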
